A study of Homo sapiens with 10 samples.

Results

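DNA damage signalling and repair genes were followed in DLD-1 cells, a human colorectal cancer cell line, after knockdown of LMNB1, which encodes lamin B1 of the nuclear lamina. The set holds 47 genes by name, in 7 groups: damage signalling, homologous recombination, the Fanconi anaemia pathway, end joining, mismatch repair, nucleotide excision repair and single-strand break repair. A gene was measured where the array has a probe annotated to it alone, and where there were several such probes the one with the highest mean stands for it. Of the 47 genes, 36 had such a probe, and all 36 passed the filter on dim probes, among 11198 genes tested of 14232 with a probe of their own. ATM, RAD50, FANCL, XRCC5, PMS2, XPA and XRCC1 have only probes shared with another gene, and BRCA2, FANCA, FANCD2 and MSH3 were not analysed here.

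RNA was hybridised to 10 gene-level exon arrays, and each value is a log2 level of 1 probe on 1 array. Knockdown cells carried a short hairpin RNA against LMNB1 and were grown under puromycin. Clones 8, 9 and 12, each grown from a single cell and each on 1 array, carry construct V2LHS_62673. Clone 2 is the one clone of construct V2LHS_62675 and has 3 arrays that were averaged, so nothing measured with this construct has a second clone behind it. The controls were wild type DLD-1 cells on 1 array, which had neither vector nor puromycin nor a cloning step, and 3 single cell clones carrying the vector without a hairpin, under puromycin. The comparisons are therefore of 4 knockdown clones with 4 controls, of each construct with the 3 empty vector clones, of wild type cells with those same clones, and of construct V2LHS_62675 with construct V2LHS_62673. The comparisons with the empty vector clones share those 3 clones, so their values are given side by side and not as separate evidence. The p-values set a difference against the spread between samples of the same group. Clone 2 and wild type cells are 1 sample each. Where they stand as groups of their own, the spread comes only from the empty vector and V2LHS_62673 clones. How precise a value is depends on how few arrays there are.

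Cells sense DNA breaks and stalled replication forks through the kinases ATM and ATR, which act through CHEK2 and CHEK1 and through ubiquitin ligases that mark the chromatin around a break. Breaks are then joined end to end by the Ku and DNA-PK proteins with XRCC4 and LIG4, or copied from the sister chromatid by homologous recombination, which needs BRCA1 and PALB2. Fanconi proteins act on crosslinked DNA, mismatch repair on replication errors, nucleotide excision on bulky lesions and PARP enzymes on single-strand breaks. DLD-1 is known as a mismatch repair deficient line through loss of MSH6 function.

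The promoters of the 4 members with the smallest p between knockdown and control clones without clone 8 are shown, since the differences in those genes are the ones described most closely here. Each runs from 250 bases before to 50 after the first listed start of the gene in RefSeq (GRCh38.p14), 5′ to 3′. Capitals mark the letters of the motifs searched on both strands, which were the CCAAT box, the cell cycle element TTTGAA, the E2F forms TTTGGCGC and TTTCGCGC, and the NRF1 motif. XRCC6 lies at chr22:41621045-41621344 on the plus strand, RAD51AP1 at chr12:4538640-4538939 on the plus strand, FANCC at chr9:95317660-95317959 on the minus strand and PALB2 at chr16:23641261-23641560 on the minus strand.
XRCC6: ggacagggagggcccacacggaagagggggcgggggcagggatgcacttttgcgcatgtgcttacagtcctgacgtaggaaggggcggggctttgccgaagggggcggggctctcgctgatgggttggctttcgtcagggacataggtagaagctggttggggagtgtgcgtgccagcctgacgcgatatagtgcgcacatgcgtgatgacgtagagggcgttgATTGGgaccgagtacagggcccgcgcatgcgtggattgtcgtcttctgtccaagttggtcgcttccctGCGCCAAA
RAD51AP1: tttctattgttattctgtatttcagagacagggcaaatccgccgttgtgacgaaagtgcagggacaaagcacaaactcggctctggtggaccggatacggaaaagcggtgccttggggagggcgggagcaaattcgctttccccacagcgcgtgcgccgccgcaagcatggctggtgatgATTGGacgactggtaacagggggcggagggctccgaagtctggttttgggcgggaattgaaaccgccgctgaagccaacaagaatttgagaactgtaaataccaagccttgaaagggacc
FANCC: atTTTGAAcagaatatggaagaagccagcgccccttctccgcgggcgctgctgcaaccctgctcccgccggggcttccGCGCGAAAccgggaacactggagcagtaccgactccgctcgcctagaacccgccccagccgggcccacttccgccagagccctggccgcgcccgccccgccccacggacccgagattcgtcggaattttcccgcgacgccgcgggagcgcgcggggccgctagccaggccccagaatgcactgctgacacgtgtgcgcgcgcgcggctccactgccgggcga
PALB2: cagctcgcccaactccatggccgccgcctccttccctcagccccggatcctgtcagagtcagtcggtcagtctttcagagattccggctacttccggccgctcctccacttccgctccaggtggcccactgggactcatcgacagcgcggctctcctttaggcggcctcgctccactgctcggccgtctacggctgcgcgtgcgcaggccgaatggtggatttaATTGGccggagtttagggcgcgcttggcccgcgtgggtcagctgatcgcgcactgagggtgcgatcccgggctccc
Of the 36 measured members, 33 had a promoter in the RefSeq table. The CCAAT box occurred in 14 of the 33 (42.42%), against 35.7% of 27305 promoters of all genes. The form TTTCGCGC occurred in 3 (9.09%), those of TOPBP1, FANCC and EXO1, against 0.55% of all promoters. The form TTTGGCGC occurred in 1 (3.03%), XRCC6, against 0.66%. The element TTTGAA occurred in 2 (6.06%), against 15.43%, and the NRF1 motif in 0, against 1.36%. No motif searched is contained in another, and a match is only a run of letters.

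Among the arrays, that of clone 8 lay far from the rest. Its correlation with them over all probes was 0.915 to 0.926, while the other 9 arrays correlated at 0.986 to 0.9945 with each other. Results are therefore given with and without clone 8. The titles and descriptions of the 3 V2LHS_62675 arrays disagree on whether the clone is number 12 or 2, and number 2 was followed. The LMNB1 probe, which is shared with PCIF1, read 7.79, 7.70, 7.45 and 7.67 in clones 8, 9, 12 and 2, against 9.52 in wild type cells and 8.93, 9.17 and 8.84 in the empty vector clones. The groups did not overlap, and the difference of -1.46 left 36.3% of the control signal (exact permutation p = 0.0286, two-sided, the smallest that 70 regroupings allow). Its adjusted p in limma was 0.0602, which misses 0.05. Of 10 colon epithelium markers 9 passed the filter, with EPCAM at 11.26 to 11.79 and KRT20 under it at 4.78 to 5.44. PTPRC, which marks leukocytes, was at 3.82 to 4.28, the fibroblast markers DCN and LUM were at 3.94 to 4.63 and 3.68 to 4.27, and the endothelial marker PECAM1 was at 4.51 to 5.39. Of these lists 3 of 6 leukocyte, 5 of 7 fibroblast and 3 of 6 endothelial markers passed the filter, the brightest of them being CD68 at 7.54 to 8.07, COL1A1 at 7.34 to 8.27 and CLDN5 at 8.02 to 8.88.

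The sign of the repair set as a whole turned on clone 8. In this clone the members had a median log2 difference from the mean of the empty vector clones of -0.20, with 13 higher and 23 lower, while clones 9, 12 and 2 had medians of 0.12, 0.10 and 0.14 with 25, 26 and 28 of 36 higher. The difference in clone 8 went with the level of the probe. Among all genes its median was 0.57 for probes under a log2 level of 7 in the empty vector clones, 0.41 from 7 to 8, -0.06 from 8 to 9, -0.49 from 9 to 10 and -0.84 at 10 or more. Among repair genes it was 0.72, 0.17, -0.16, -0.67 and -1.49 in the same order, over 5, 6, 11, 10 and 4 genes. The other knockdown clones and wild type cells had medians between -0.04 and 0.05 over all genes at every level. In the same clone all 3 leukocyte, 5 fibroblast and 3 endothelial markers tested were above the empty vector mean, with medians of 0.41, 0.76 and 0.70, and 6 of 9 colon epithelium markers were, with a median of 0.095. The part of the level dependence and of these markers in the repair values of clone 8 was not tested.

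**Figure D1:**
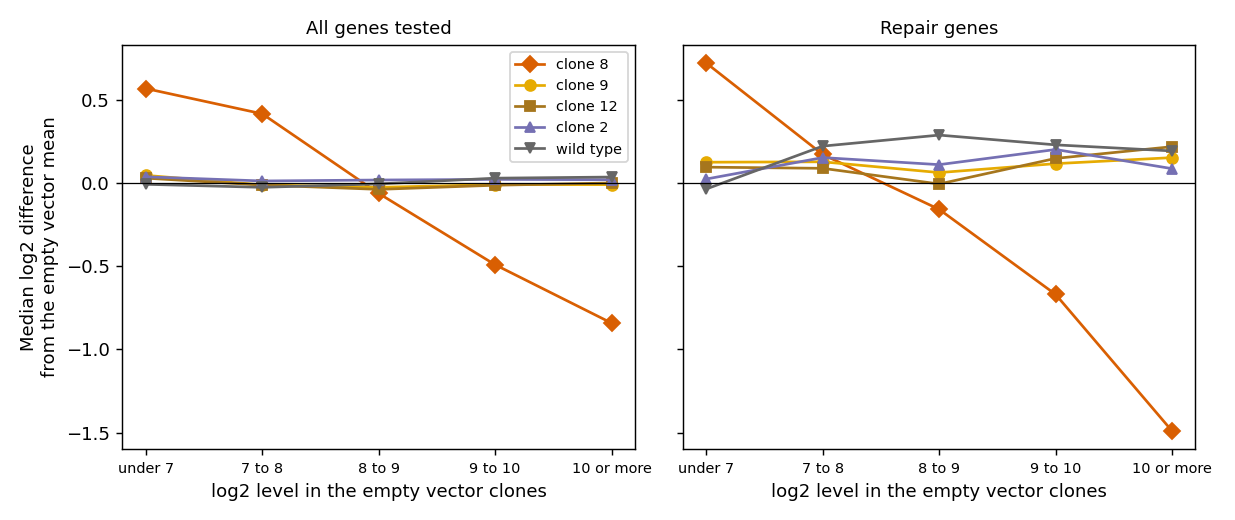
Median log2 difference from the empty vector mean (vertical axis) for genes grouped by their log2 level in the empty vector clones (horizontal axis), for all genes tested (left) and for repair genes (right). The line of clone 8 runs down from 0.57 at low levels to -0.84 at high levels over all genes and from 0.72 to -1.49 over repair genes, while the lines of clones 9, 12 and 2 and of wild type cells stay flat over all genes.

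No repair gene passed the test between knockdown and control clones. With all clones, 0 of 36 members had an adjusted p under 0.05 in limma (Benjamini-Hochberg), as did 0% of all genes, and 0 members against 256 genes (2.29%) had an unadjusted p under 0.05. Without clone 8 the counts were again 0 and 0%, with 2 members and 724 genes (6.47%) at an unadjusted p under 0.05. The median difference of the members was -0.04 with all clones, 14 higher and 22 lower, beside 0.04 over all genes with 56.1% higher. Without clone 8 it was 0.07, 25 higher and 11 lower, beside 0.01 over all genes with 52% higher. RNF8 alone had no overlap between the 4 knockdown clones and the 4 controls, and was higher, as were 1.6% of all genes. Without clone 8, RNF8, XRCC6 and XRCC4 did not overlap and were higher (3.46% of all genes), and no member was lower without overlap in either case, beside 1.54% of all genes with all clones and 2.65% without clone 8. In RNA from bulk cultures, fewer cells that express a gene and less RNA per cell cannot be told apart.

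**Figure D2:**
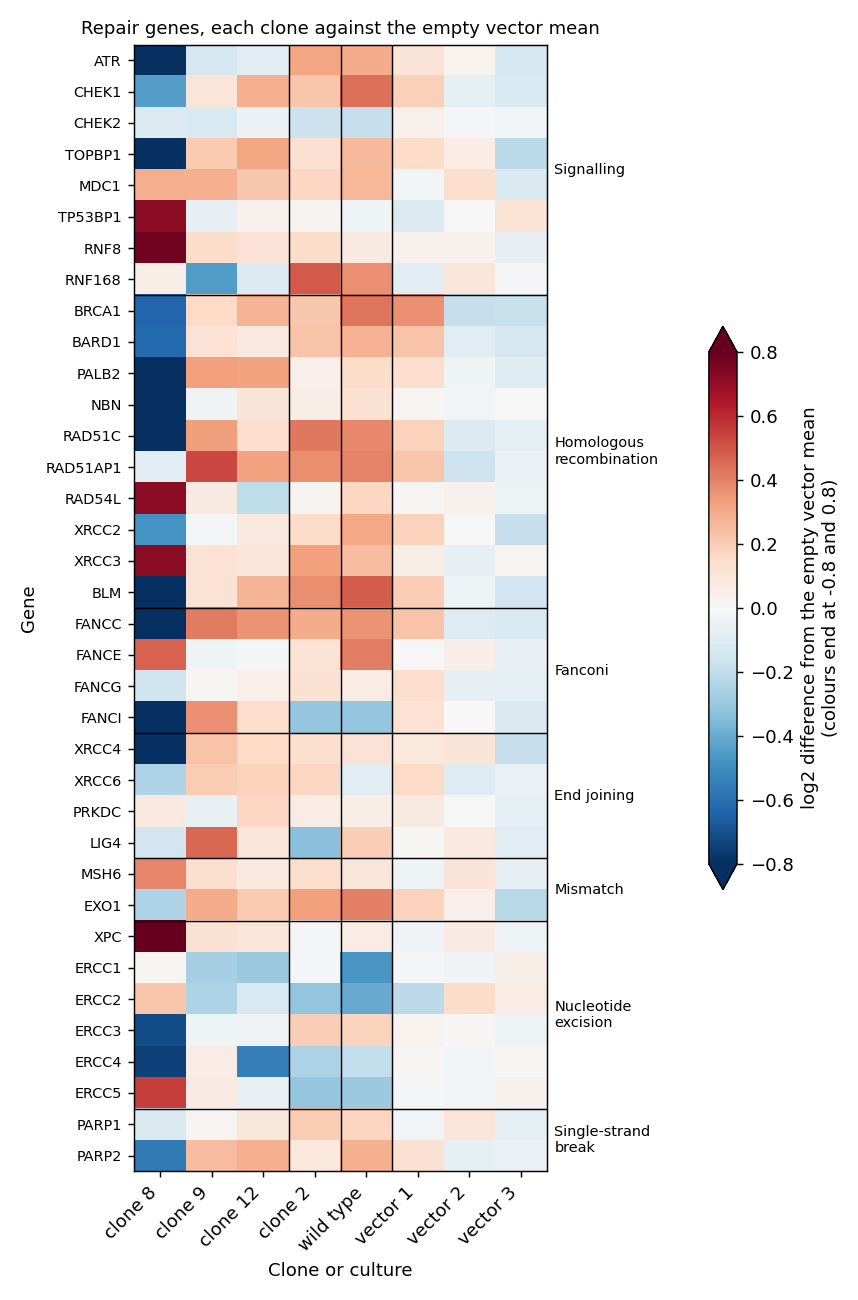
Log2 difference of each of the 36 repair genes (rows, by pathway) from the mean of the 3 empty vector clones, in the knockdown clones, wild type cells and the empty vector clones (columns). Clone 8 has the widest range, from -2.51 to 0.89, and homologous recombination genes of wild type cells are all above 0.

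**Figure D3:**
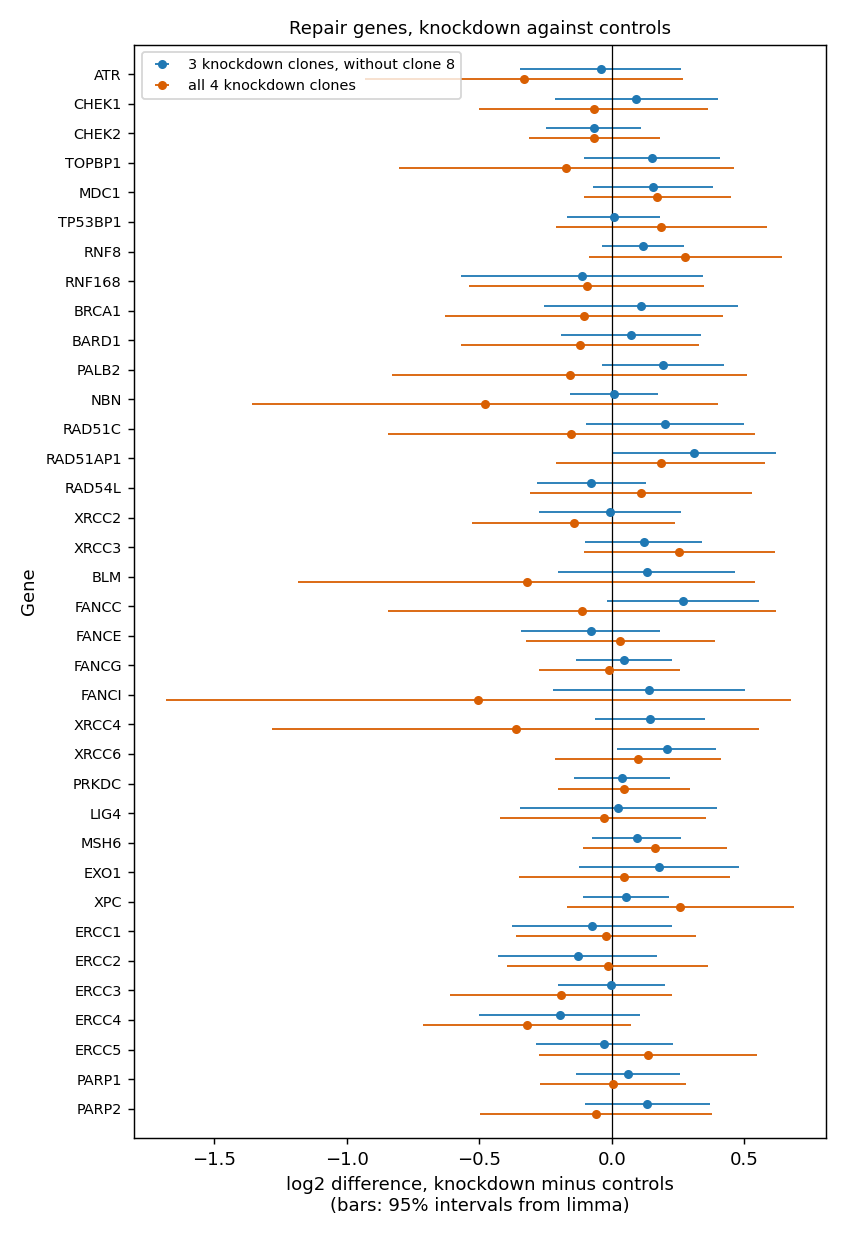
Log2 difference between knockdown and control clones (horizontal axis) of each repair gene (vertical axis), without clone 8 and with all 4 knockdown clones, with 95% intervals from limma. Intervals with clone 8 are mostly wider and all cross 0. Without clone 8 those of XRCC6 and RAD51AP1 lie above 0, before adjustment over all genes, and the others cross it.

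Damage signalling genes differed in both directions, with 3 of 8 higher with all clones (median -0.07) and 5 of 8 without clone 8 (median 0.05). ATR, the kinase that answers single-stranded DNA at forks, read 7.68, 8.67, 8.72 and 9.12 in clones 8, 9, 12 and 2, against 9.10 in wild type cells and 8.91, 8.83 and 8.67 in the empty vector clones. CHEK1, the kinase that ATR activates, read 9.67, 10.21, 10.41 and 10.34 in the same clones, against 10.55 in wild type cells and 10.31, 10.04 and 9.99 in the empty vector clones. CHEK2, the kinase that ATM activates, read 7.50, 7.48, 7.56 and 7.43 in clones 8, 9, 12 and 2, against 7.42 in wild type cells and 7.64, 7.59 and 7.58 in the empty vector clones. ATR was low in clone 8 and highest in clone 2, CHEK1 was low in clone 8 and highest in wild type cells, and CHEK2 was below every empty vector clone in all 4 knockdown clones and in wild type cells. The difference of CHEK2 between knockdown and controls was -0.07 with all clones and also without clone 8 (SE 0.11 and 0.08). MDC1, the scaffold that binds modified histone at a break, read 8.26, 8.26, 8.19 and 8.14 in the knockdown clones, against 8.24 in wild type cells and 7.95, 8.11 and 7.86 in the empty vector clones. RNF8, the ubiquitin ligase that MDC1 recruits, read 7.47, 6.84, 6.81 and 6.84 in clones 8, 9, 12 and 2, against 6.77 in wild type cells and 6.73, 6.73 and 6.62 in the empty vector clones. Every knockdown clone was above every empty vector clone in both genes, and wild type cells overlapped the knockdown clones in MDC1 but not in RNF8. In MDC1 array 2 of clone 2 read 7.96, below empty vector clone 2. The share of all genes that separate in this way from the empty vector clones was not counted, for these or other members. The difference of RNF8 was 0.28 (SE 0.16) with all clones and 0.12 (SE 0.07) without clone 8, with adjusted p of 0.761 and 0.810 in limma, and that of MDC1 was 0.17 (SE 0.12) and 0.15 (SE 0.10). TOPBP1, the activator of ATR, and TP53BP1, which favours end joining, differed by -0.17 and 0.19 with all clones and by 0.15 and 0.01 without clone 8.

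Homologous recombination genes were mostly higher once clone 8 was left out, with 8 of 10 above the controls (median 0.11), against 3 of 10 with all clones (median -0.13). In the same comparison 0 of 9 colon epithelium markers were higher without clone 8 (median -0.12) and 2 of 9 with all clones (median -0.059), and their part in the repair differences was not tested. No recombination gene passed the test, and 1 had an unadjusted p under 0.05 without clone 8. That gene was RAD51AP1, which helps DNA strands pair. RAD51AP1 read 8.72, 9.35, 9.14 and 9.19 in clones 8, 9, 12 and 2, against 9.21 in wild type cells and 9.04, 8.65 and 8.76 in the empty vector clones. PALB2, which joins BRCA1 to BRCA2, read 7.95, 9.45, 9.45 and 9.16 in clones 8, 9, 12 and 2, against 9.27 in wild type cells and 9.26, 9.09 and 9.03 in the empty vector clones. BRCA1 itself read 7.50, 8.29, 8.40 and 8.35 in clones 8, 9, 12 and 2, against 8.56 in wild type cells and 8.49, 7.95 and 7.95 in the empty vector clones. In RAD51AP1 clones 9, 12 and 2 were above all empty vector clones and wild type cells lay among them. For clone 2 this holds only for the mean of its arrays, since array 1 read 8.985, below empty vector clone 1. In PALB2 only clones 9 and 12 were above every control, and in BRCA1 wild type cells and empty vector clone 1 were higher than every knockdown clone. Without clone 8 the differences from controls were 0.31 (SE 0.14) for RAD51AP1, 0.19 (SE 0.10) for PALB2 and 0.11 (SE 0.16) for BRCA1, with adjusted p of 0.769, 0.797 and 0.938 in limma. With all clones RAD51AP1 stood at 0.18, and PALB2 and BRCA1 turned to -0.16 and -0.10. XRCC3, which acts in strand exchange, read 8.09, 7.49, 7.47 and 7.70 in the knockdown clones, against 7.62 in wild type cells and 7.42, 7.31 and 7.39 in the empty vector clones. All knockdown clones were above the empty vector clones, and wild type cells were above clones 9 and 12. Its difference from controls was 0.26 (SE 0.16) with all clones and 0.12 (SE 0.10) without clone 8. The other 6 members ranged from -0.08 (RAD54L, a strand exchange motor) to 0.20 (RAD51C, which acts with XRCC3) without clone 8, with BARD1, the partner of BRCA1, at 0.07, NBN at 0.01, XRCC2 at -0.01 and the helicase BLM at 0.13.

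In the Fanconi pathway 1 of 4 members was higher with all clones (median -0.06) and 3 of 4 without clone 8 (median 0.09). FANCC, a subunit of the core complex, read 7.36, 8.94, 8.88 and 8.82 in clones 8, 9, 12 and 2, against 8.88 in wild type cells and 8.75, 8.42 and 8.40 in the empty vector clones. FANCI, the partner of FANCD2 on damaged DNA, read 8.08, 10.95, 10.73 and 10.28 in clones 8, 9, 12 and 2, against 10.28 in wild type cells and 10.70, 10.59 and 10.47 in the empty vector clones. Clone 8 was the lowest in both, FANCC was higher than every empty vector clone in clones 9, 12 and 2 and in wild type cells, and FANCI was at 10.28 in both clone 2 and wild type cells, below the other clones but clone 8. FANCC differed from controls by 0.27 (SE 0.13, adjusted p = 0.774 in limma) without clone 8 and by -0.11 (SE 0.33) with it. FANCI differed by 0.14 (SE 0.16) without clone 8 and by -0.50 (SE 0.53) with it. FANCE and FANCG, further core subunits, differed by -0.08 and 0.05 without clone 8.

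All 4 end joining genes were higher without clone 8 (median 0.09), and 2 of 4 were higher with all clones (median 0.01). XRCC6, the smaller Ku subunit, read 6.34, 6.79, 6.77 and 6.75 in clones 8, 9, 12 and 2, against 6.49 in wild type cells and 6.74, 6.48 and 6.53 in the empty vector clones. XRCC4, the cofactor of LIG4, read 7.74, 9.83, 9.76 and 9.73 in clones 8, 9, 12 and 2, against 9.72 in wild type cells and 9.69, 9.70 and 9.41 in the empty vector clones. PRKDC, the catalytic subunit of DNA-PK, read 10.00, 9.86, 10.09 and 9.98 in clones 8, 9, 12 and 2, against 9.98 in wild type cells and 10.00, 9.92 and 9.85 in the empty vector clones. Clones 9, 12 and 2 were above every control in XRCC6 and XRCC4 by a small margin, clone 8 was below every control in both, and the groups overlapped in PRKDC. For clone 2 this holds only for the mean of its arrays, which read 6.92, 6.66 and 6.66 in XRCC6 and 9.66, 9.83 and 9.71 in XRCC4. Arrays 2 and 3 in XRCC6 and arrays 1 and 3 in XRCC4 were below the highest control. XRCC6 was the member with the smallest p without clone 8, at 0.21 (SE 0.08, 95% interval 0.02 to 0.39, adjusted p = 0.750 in limma), and it stood at 0.10 (SE 0.14) with all clones. XRCC4 differed by 0.14 (SE 0.09) without clone 8 and by -0.36 (SE 0.41) with it, and PRKDC by 0.04 (SE 0.08) and 0.05 (SE 0.11). LIG4, the ligase itself, differed by 0.02 (SE 0.16) and -0.03 (SE 0.17).

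Both measured mismatch repair genes were higher with all clones (median 0.11) and without clone 8 (median 0.14). MSH6, the subunit that finds single mismatches and that DLD-1 is known to lack in function, read 7.91, 7.65, 7.59 and 7.66 in clones 8, 9, 12 and 2, against 7.61 in wild type cells and 7.48, 7.62 and 7.45 in the empty vector clones. EXO1, the exonuclease that removes the mismatched strand, read 9.29, 9.83, 9.74 and 9.86 in clones 8, 9, 12 and 2, against 9.94 in wild type cells and 9.71, 9.58 and 9.31 in the empty vector clones. In MSH6 empty vector clone 2 lay within the range of clones 9, 12 and 2, and in EXO1 clones 9, 12 and 2 were above every empty vector clone and below wild type cells. Without clone 8 MSH6 differed from controls by 0.09 (SE 0.07) and EXO1 by 0.18 (SE 0.13), and with all clones by 0.16 (SE 0.12) and 0.05 (SE 0.18).

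Of the nucleotide excision genes, 2 of 6 were higher with all clones (median -0.02) and 1 of 6 without clone 8 (median -0.05), and a difference between this pathway and the others was not tested. ERCC4, a subunit of the nuclease that cuts one side of a lesion, read 7.60, 8.41, 7.81 and 8.10 in clones 8, 9, 12 and 2, against 8.15 in wild type cells and 8.36, 8.33 and 8.37 in the empty vector clones. ERCC2, a helicase of TFIIH, read 8.62, 8.15, 8.27 and 8.08 in clones 8, 9, 12 and 2, against 7.99 in wild type cells and 8.18, 8.54 and 8.45 in the empty vector clones. ERCC4 was even among the empty vector clones, lower in clones 8, 12 and 2 and in wild type cells, and slightly higher in clone 9. ERCC2 was lowest in wild type cells and overlapped between the groups. ERCC4 differed from controls by -0.32 (SE 0.18, adjusted p = 0.761 in limma) with all clones and by -0.20 (SE 0.13, adjusted p = 0.826) without clone 8. ERCC2 differed by -0.02 and -0.13. Of the others, XPC, the damage sensor, stood at 0.05, ERCC1, the partner of ERCC4, at -0.07, ERCC5, the other nuclease, at -0.03 and ERCC3, the second TFIIH helicase, at -0.0014 without clone 8.

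Single-strand break repair was measured through PARP1 and PARP2, enzymes that build poly(ADP-ribose) at nicks. PARP1 read 9.36, 9.49, 9.57 and 9.68 in clones 8, 9, 12 and 2, against 9.65 in wild type cells and 9.45, 9.58 and 9.40 in the empty vector clones. PARP2 read 8.16, 8.98, 9.01 and 8.82 in clones 8, 9, 12 and 2, against 9.02 in wild type cells and 8.85, 8.66 and 8.68 in the empty vector clones. The groups overlapped in both, and PARP2 was highest in wild type cells and clones 12 and 9. Without clone 8 the differences from controls were 0.06 (SE 0.09) for PARP1 and 0.13 (SE 0.10) for PARP2, and with all clones 0.01 (SE 0.12) and -0.06 (SE 0.20).

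**Figure D4:**
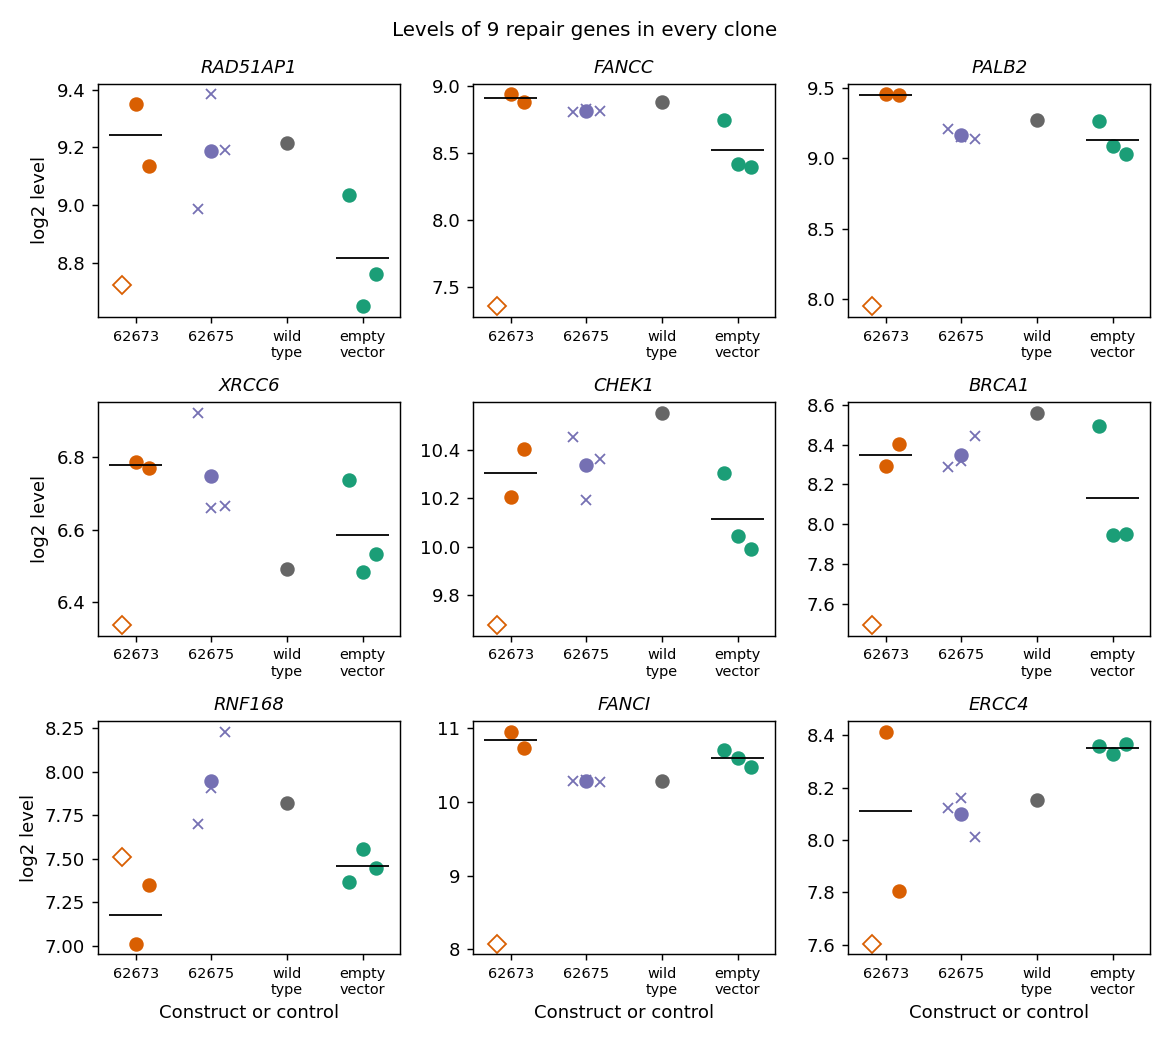
Log2 level (vertical axis) of 9 repair genes by construct, wild type cells and empty vector clones (horizontal axis). Filled points are clones or cultures, the open diamond is clone 8, crosses are the 3 arrays of clone 2, and bars are group means without clone 8. Clone 8 lies lowest in 7 of 9 panels, all but those of RAD51AP1 and RNF168, and RNF168 is higher in all 3 arrays of clone 2 than in every V2LHS_62673 and empty vector clone.

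Each construct was next set against the empty vector clones alone. With all clones no gene passed in limma in either comparison, and at an unadjusted p under 0.05 there were 0 members in each, beside 3.19% of all genes for V2LHS_62673 and 2.63% for V2LHS_62675. Without clone 8, construct V2LHS_62673 had 0 of 36 members past the threshold in limma, beside 1.02% of all genes, with 8 members higher and 2 lower at an unadjusted p under 0.05 (6.72% and 9.22% of all genes). The members' median was 0.11, with 26 of 36 higher, beside -0.0005 over all genes with 49.9% higher. With clone 8 its direction turned, to a median of -0.04 with 14 of 36 higher. RAD51AP1 stood at 0.43 (SE 0.13, adjusted p = 0.137 in limma), FANCC at 0.39 (SE 0.12, 0.148 by the same test) and PALB2 at 0.32 (SE 0.10, 0.152). ERCC1 stood at -0.28 (SE 0.09, adjusted p = 0.160 in limma). Construct V2LHS_62675, with its 1 clone, also had 0 of 36 past the threshold, beside 3.73% of all genes, with 6 members higher and 3 lower at an unadjusted p under 0.05 (9.88% and 8.3% of all genes). Its median was 0.14, with 28 of 36 higher, beside 0.02 over all genes with 56.5% higher. RNF168 stood at 0.49 (SE 0.15, adjusted p = 0.0960 in limma), RAD51C at 0.42 (SE 0.15, 0.142 by the same test) and XRCC3 at 0.33 (SE 0.12, 0.145). All 10 homologous recombination genes were higher with V2LHS_62675 (median 0.22) and 9 of 10 with V2LHS_62673 (median 0.15), and under quantile normalization 8 and 9 of 10 were. With clone 8 in the fit, V2LHS_62673 had 3 of 10 higher (median -0.14). Colon epithelium markers were higher in 5 of 9 for V2LHS_62675 (median 0.066) and in 0 of 9 for V2LHS_62673 without clone 8 (median -0.21), and their part was not tested. Nucleotide excision genes had medians of -0.13 and -0.11, with 5 and 4 of 6 lower.

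Between the constructs 1 of the 36 members passed the test when clone 8 was left out, with 1 clone of V2LHS_62675 and 2 of V2LHS_62673, and none passed with all clones. That gene was RNF168. RNF168, the ubiquitin ligase that spreads the mark laid by RNF8, read 7.95 in clone 2, with 7.70, 7.91 and 8.23 on its 3 arrays, against 7.51, 7.01 and 7.35 in clones 8, 9 and 12 of V2LHS_62673. Wild type cells read 7.82 and the empty vector clones 7.37, 7.56 and 7.45. Clone 2 and wild type cells were high, and each array of clone 2 was above every V2LHS_62673 and empty vector clone. Without clone 8 the difference of V2LHS_62675 from V2LHS_62673 was 0.77 (SE 0.16, 95% interval 0.42 to 1.11, adjusted p = 0.0390 in limma), and it was the 1 member of 36 past the threshold, beside 2.15% of all genes in either direction and 0.938% higher. With all clones the difference was 0.66 (SE 0.25) and did not pass, at an adjusted p of 0.932 in limma. No gene passed there, and 1 member beside 2.22% of all genes had an unadjusted p under 0.05. The call also ended without clone 9 (adjusted p = 0.0715 in limma), without empty vector clone 2 or 3 (0.0809 and 0.0914), and without array 3 of clone 2 (0.101). It ended as well under quantile normalization, median centring and no filter on dim probes (adjusted p of 0.0605, 0.0551 and 0.0537 in limma). FANCI read 10.28 in clone 2, against 10.95 and 10.73 in clones 9 and 12, a difference of -0.57 (SE 0.15, adjusted p = 0.0759 in limma), but clone 8 read 8.08 and turned it to 0.36 (SE 0.99). LIG4 read 7.53 in clone 2, against 7.72, 8.32 and 7.97 in clones 8, 9 and 12, a difference of -0.61 (SE 0.16, adjusted p = 0.0770 in limma) without clone 8 and of -0.47 (SE 0.27) with it. Over all 36 members the median difference between the constructs was 0.01 without clone 8, with 21 higher and 15 lower beside 55.7% of all genes higher. With clone 8 it was 0.16, with 24 higher and 12 lower beside 45.2% of all genes higher.

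Wild type cells, which carry no hairpin, had the highest median difference of the repair genes from the empty vector clones among the 5 clones or cultures so compared, and this order was not tested. It was 0.17, with 28 of 36 members higher, beside -0.01 over all genes with 48.2% higher. Without clone 8, 0 members passed in limma, beside 3.6% of all genes, with 10 members higher and 4 lower at an unadjusted p under 0.05 (10.3% and 9.44% of all genes). With clone 8 in the fit no gene passed, and 0 members beside 2.59% of all genes had an unadjusted p under 0.05. All 10 homologous recombination genes were above every empty vector clone in wild type cells, as were 24 of all 36 members and 30.1% of all genes. The same was so of 6 of 10 in clone 2 (19 of 36 members, 32% of all genes), of 5 of 10 in clone 9 (19 of 36, 27.9%), of 5 of 10 in clone 12 (18 of 36, 27.4%) and of 2 of 10 in clone 8 (11 of 36, 53.6%). The median of homologous recombination genes was 0.29 in wild type cells and 0.22, 0.12, 0.12 and -0.63 in clones 2, 9, 12 and 8. Below every empty vector clone lay 6 members in wild type cells (30.3% of all genes), 6 each in clones 2, 9 and 12 (25.2%, 27.8% and 31.6%) and 22 in clone 8 (38.1%). Among single genes, the helicase BLM stood at 0.48 (SE 0.15, adjusted p = 0.0969 in limma), CHEK1 at 0.44 (SE 0.15, 0.127 by the same test) and FANCE at 0.41 (SE 0.12, 0.0768) in wild type cells against the empty vector clones. ERCC1 stood at -0.46 (SE 0.11, adjusted p = 0.0517 in limma) and ERCC2 at -0.40 (SE 0.15, 0.162 by the same test), and the nucleotide excision median was -0.25 with 4 of 6 lower. RAD51C, LIG4, BLM, FANCE and ERCC1 were singled out after their values were seen.

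The other repair genes on the array, a further list of 72 measured genes that holds no member, had a median difference between knockdown and control clones of 0.04 without clone 8, with 46 of 72 higher, and of -0.0076 with all clones, with 34 of 72 higher. Of the 72 genes, 0 passed in limma in either case, and 5 had an unadjusted p under 0.05 without clone 8 (6.47% of all genes), against 1 with all clones (2.29% of all genes). The 4 with the smallest p without clone 8 were FANCM, a fork remodelling translocase, at 0.40 (SE 0.10, adjusted p = 0.639 in limma), BRCC3, the deubiquitinase of the BRCA1-A complex, at 0.36, the nuclease MRE11 at 0.27 and MAD2L2, a subunit of a translesion polymerase, at -0.26. Without clone 8, RPA2, a subunit of the single-strand binding protein RPA, rose by 0.65 in clone 2 over the empty vector clones (SE 0.14, adjusted p = 0.0372 in limma), 1 gene of 72 beside 3.73% of all genes. The mismatch repair gene MLH3 was lower by a log2 difference of -0.60 in V2LHS_62675 than in V2LHS_62673 (SE 0.13, adjusted p = 0.0445 in limma), again 1 of 72, beside 2.15% of all genes. In wild type cells against the empty vector clones 2 of 72 rose, beside 3.6% of all genes called in either direction. These were GTF2H1, a TFIIH subunit, by 0.69 (SE 0.13, adjusted p = 0.0225 in limma) and USP1, which removes ubiquitin from FANCD2, by 0.64 (SE 0.15, 0.0463 by the same test). For V2LHS_62673 against the empty vector clones 0 of 72 passed in limma, with 11 higher and 3 lower at an unadjusted p under 0.05 (6.72% and 9.22% of all genes). Each of these calls has 1 clone or culture on its side of the comparison, and none was made with clone 8 in the fit.

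The empty vector clones also differed among themselves. Against their own mean, the members' median was 0.06, -0.0006 and -0.07 in empty vector clones 1, 2 and 3, and that of homologous recombination genes was 0.19, -0.05 and -0.09. BRCA1 read 8.49 in clone 1 of them and 7.95 in the other two. Without empty vector clone 1, and without clone 8, RAD51AP1 stood at 0.54 and FANCC at 0.50 for V2LHS_62673. In wild type cells BRCA1 stood at 0.61, BLM at 0.58, CHEK1 at 0.54 and ERCC2 at -0.51 in that fit. These genes were picked by their p in it. Genes of DNA replication and S phase are a separate list of 36 measured genes. Their median against the empty vector mean was 0.37 in wild type cells, 0.38 in clone 2, 0.16 in clones 9 and 12, -0.22 in clone 8, and 0.14, -0.01 and -0.12 in the empty vector clones. The 3 arrays of clone 2 had replication medians of 0.11, 0.41 and 0.50 and homologous recombination medians of 0.12, 0.29 and 0.29. The part of replication genes in the repair differences was not tested.

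**Figure D5:**
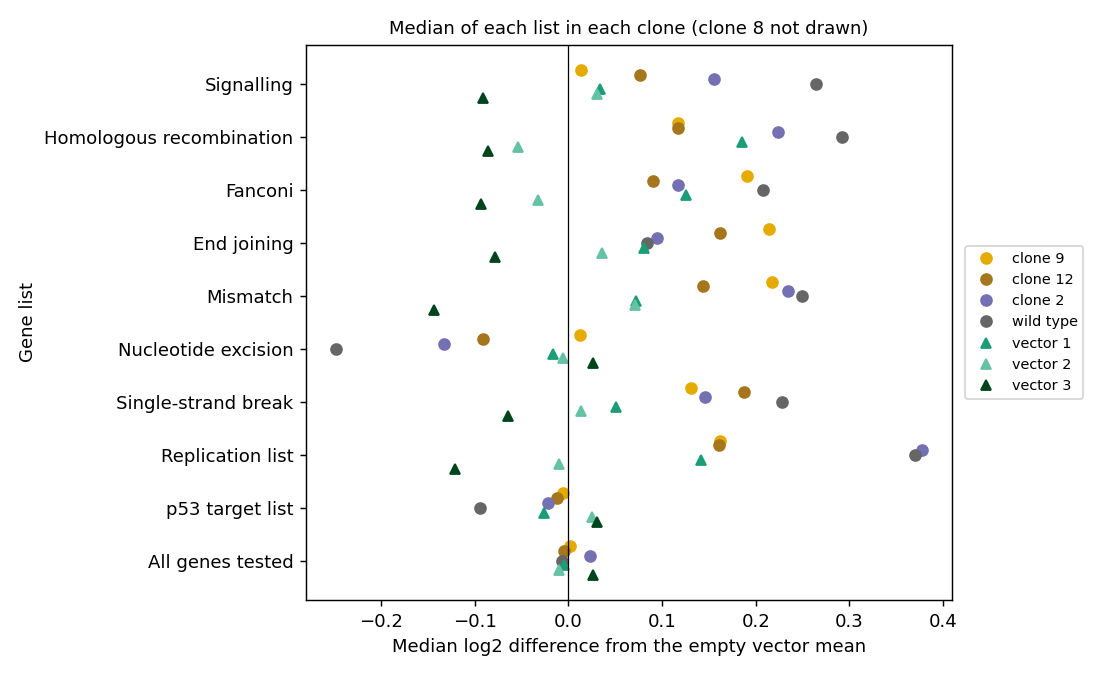
Median log2 difference from the empty vector mean (horizontal axis) of each repair pathway, of the replication and p53 target lists and of all genes tested (vertical axis), in clones 9, 12 and 2, wild type cells and the 3 empty vector clones. In homologous recombination and replication genes wild type cells and clone 2 lie furthest to the right, while nucleotide excision genes lie to the left in wild type cells at -0.25.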

How the data were processed

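The 10 arrays, gene-level exon arrays, measured RNA of DLD-1 cells. The values are the log2 levels of 22011 probes that the authors deposited. The log2 base was read from their range. Not given in the sources used here are the background correction, the normalization and the probe summary. Per the labels, ribosomal RNA was removed from total RNA before labelling of cDNA with biotin. No further scaling was applied.

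A single gene symbol is given for 14432 probes, several for 2408 and none for 5171, and 14404 of those with 1 were matched by gene identifier to a RefSeq table (GRCh38), used for names and gene order. The probe with the highest mean stood for a gene, and the filter left out probes whose mean was below a log2 level of 5.95, the 25th percentile. The shared LMNB1 probe made 11199 features. The arrays of clone 2 were averaged, which gives 8 samples. Differences were fitted on the whole table with lmFit and eBayes (limma 3.58.1 under R 4.3.3), and two-sided p-values were adjusted by Benjamini-Hochberg with a threshold of 0.05. Knockdown against controls had 6 residual degrees of freedom, and the fit of the 4 groups had 4 (5 and 3 without clone 8). With 1 sample each, clone 2 and wild type cells are assumed to vary like the other groups. The fit was tested on simulated data for knockdown against controls. With the spread of all clones it found 5 of 100 true log2 differences of 0.5 and 50 of 100 of 1. With the spread without clone 8 it found 66 and 97 of 100, with 12 false calls. The simulated spread was that within the 4 groups. It left out the differences between the constructs and between wild type cells and empty vector clones, which the real comparison holds. The shares found may therefore be too high, and a difference of 0.5 or of 1 could be missed.

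The members and lists were chosen with earlier results of these data known. The lists are the 7 repair pathways, other repair genes, replication and S phase, p53 targets and markers of colon epithelium, leukocytes, fibroblasts and endothelium. Given on every clone are ATR, CHEK1, CHEK2, BRCA1, PRKDC, MSH6 and PARP1, members past the threshold in any comparison, and in each pathway the 2 smallest p without clone 8 and the smallest with all clones. Lists were described by counts and medians only.

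Empty vector clones and clone 2 arrays share numbers 1 to 3. Deviations of same-numbered arrays from their group means correlated at 0.03, -0.15 and -0.24, and those of differently numbered arrays at -0.08 to 0.23. These values show no pairing by number, but with 3 arrays a group they cannot exclude it. Alternatives tried were array weights, a trended robust prior, median centring or quantile normalization of arrays, averaging the probes of a gene, a filter at the 50th percentile or none, every array with clone as a random block, the replicate block, fewer controls, and leaving out each clone or array. Showing results without clone 8 at length was chosen after seeing the data.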

Additional observations from a re-analysis of the deposited data

Results flagged for a closer look

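In 44 groups of 4 samples, a knockdown and a control group for each of 21 named members and the LMNB1 probe, 6 held a sample far from the other 3. Chance gives such a sample in about 1 in 20 groups, but that rate does not hold here, since most of these genes were chosen for a small p without clone 8, which favours genes in which the other 3 knockdown clones lie close together. In 5 of the 6 the sample was clone 8. BRCA1 read 7.50 there, with the nearest knockdown clone at 8.29. FANCC read 7.36 (nearest 8.82), XRCC4 7.74 (nearest 9.73) and XRCC6 6.34 (nearest 6.75), all low, while RNF8 read 7.47 (nearest 6.84) and was high. The sixth was a control, empty vector clone 3, in which XRCC4 read 9.41 with the nearest control at 9.69.

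RNF168 differed between the constructs, by 0.77 for V2LHS_62675 over V2LHS_62673 without clone 8 (SE 0.16, adjusted p = 0.0390 in limma). This is a test of the difference itself, and it rests on 1 clone of V2LHS_62675 and 2 of V2LHS_62673. With all clones the difference was 0.66 and did not pass. Without clone 8 the call was lost in 7 of 16 alternatives. The share of members that passed was near that of all genes, so the call is not a result about the repair set.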

How the results depend on the processing

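Named members had 216 values under alternatives apart from the series that left out each clone or array in turn. Of these, 192 kept their direction and side of the threshold, 23 turned in sign and 1 newly passed. The 216 include the fits with the empty vector clones as the only controls, with and without clone 8, which leave out wild type cells. With clone 8, that fit is the same as leaving out wild type cells alone, so its values are counted in both sets. For knockdown against controls, 0 members passed under every alternative run, with and without clone 8. The sign turned for ERCC2 (0.0085) and XRCC6 (-0.037) under quantile normalization, and for PRKDC (-0.022), PARP1 (-0.062) and EXO1 (-0.020) under centring. It turned for CHEK1 (0.071), BRCA1 (0.028), PALB2 (0.19), FANCC (0.24), FANCI (0.11), XRCC4 (0.11) and PARP2 (0.15) under array weights. With the empty vector clones as the only controls it turned for CHEK1 (0.043), BRCA1 (0.0031) and PARP2 (0.013), and with those controls and no clone 8 for ATR (0.033), CHEK1 (0.20), BRCA1 (0.22), PALB2 (0.23), FANCC (0.36), FANCI (0.065), XRCC4 (0.17) and PARP2 (0.21). Leaving out 1 clone or array turned it in 24 of 241 values, 7 of them without clone 8, over these ranges: CHEK1 -0.15 to 0.093, BRCA1 -0.20 to 0.11, PALB2 -0.31 to 0.19, FANCC -0.26 to 0.27, FANCI -0.82 to 0.14, XRCC4 -0.55 to 0.14, PARP2 -0.15 to 0.13, RNF168 -0.26 to 0.052, ERCC2 -0.13 to 0.067, EXO1 -0.060 to 0.18 and PARP1 -0.046 to 0.062. The cause was not tested.

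The members' median for knockdown against controls was -0.11 under centring, 0.067 under array weights and 0.089 without clone 8 and wild type cells, and -0.068 to 0.067 on leaving out 1 sample. For V2LHS_62673 against empty vector it was -0.12 and 0.11 under centring and array weights and -0.12 to 0.11 on leaving out 1 sample, and for V2LHS_62675 against V2LHS_62673 0.25, 0.030 and 0.014 to 0.24. For wild type against empty vector it was 0.25 with the filter at the 50th percentile, with and without clone 8. The LMNB1 difference passed in 7 of 21 alternatives and missed the threshold in 14, with an adjusted p of up to 0.473 in limma. It passed at -1.48 under quantile normalization, -1.46 under the robust prior and with clone as a random block, -1.43 under array weights, -1.33 with the empty vector clones alone and -1.37 without clone 8 as well. It ran from -1.55 to -1.33 on leaving out 1 sample. With all clones, array weights brought 2 members past the threshold between the constructs, RNF168 (0.83) and LIG4 (-0.67), and 1 in wild type cells, ERCC1 (-0.46). With the replicate block, V2LHS_62675 against empty vector had 1 member past it, RNF168 (0.49), and 947 genes. That block goes by array number, so each array of clone 2 entered as a separate sample. Its p-values therefore rest in part on the spread between arrays of 1 clone, and the deviations showed no pairing by number. The calls under the replicate block are thus not evidence about the construct.

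Without clone 8, the RNF168 call between the constructs ended under quantile normalization, centring and no filter, with a count of 0 and adjusted p in limma of 0.0605, 0.0551 and 0.0537, and its adjusted p ran from 0.00468 to 0.101 over 16 alternatives. On leaving out 1 more sample the counts ran from 0 to 4 between the constructs (FANCI and LIG4 joining RNF168 without clone 12, and ATR too without array 1 of clone 2), from 0 to 2 for V2LHS_62673 against empty vector (ERCC4 without clone 9, RAD51AP1 and FANCC without empty vector clone 1), from 0 to 1 for V2LHS_62675 against empty vector (RNF168 without clone 9, clone 12 or array 1) and from 0 to 4 in wild type cells (ERCC1 without clone 9 or 12, and 4 genes without empty vector clone 1). ERCC1 also passed in wild type cells under the 50th percentile filter and the robust prior, a count of 1 each. Other than for the replicate block, the counts of members past the threshold under these alternatives stand without the share of all genes called in the same fit. They are therefore not results about the repair set. Signal over background was not given, so dim probes were limited only by the filter on means.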

Other observations

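Genes of DNA replication and S phase were mostly higher in knockdown than in control clones once clone 8 was left out, with 32 of 36 higher and a median log2 difference of 0.15. None of the 36 passed in limma between knockdown and control clones, and 5 had an unadjusted p under 0.05, beside 6.47% of all genes. Among those with the smallest p were the clamp loader subunit RFC3 at 0.35 (SE 0.11, adjusted p = 0.679 in limma), ORC6 of the origin recognition complex at 0.34, the licensing factor CDC6 at 0.37 and GINS2 of the replicative helicase at 0.41 (SE 0.16, adjusted p = 0.750). With all clones 20 of 36 were higher and the median was 0.056. In clone 2 against the empty vector clones 33 of 36 were higher, beside 56.5% of all genes, with a median of 0.38. Those with the smallest p without clone 8 in the fit were GINS3 at 0.83, MCM2 at 0.59, ORC6 at 0.53, CDC45 at 0.52 and MCM5 at 0.49. In wild type cells 34 of 36 were higher than in the empty vector clones, beside 48.2% of all genes, with a median of 0.37. Those with the smallest p were POLD3 at 0.69, ORC1 at 0.68, MCM2 at 0.65, MCM4 at 0.57 and GINS3 at 0.56. Without clone 8 some replication genes passed in limma in both comparisons and between the constructs, unlike between knockdown and control clones. Each of those calls has 1 clone or culture on its side. The comparisons of clone 2 and of wild type cells share the 3 empty vector clones. MCM2, a subunit of the same helicase, averaged 9.53 in clone 2, against 8.95 ± 0.04 in clones 9 and 12 (SD, n = 2), a difference of 0.59 (SE 0.12). Above every empty vector clone lay 10 of 36 replication genes in clone 8 (53.6% of all genes), 19 in clone 9 (27.9%), 18 in clone 12 (27.4%), 29 in clone 2 (32%) and 32 in wild type cells (30.1%). Below every empty vector clone lay 19 of 36 in clone 8, beside 38.1% of all genes.

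In the p53 target list, 8 of 18 genes were higher in knockdown than in control clones without clone 8, with a median of -0.020. MDM2, the ubiquitin ligase of p53, stood at 0.25 (SE 0.11, adjusted p = 0.774 in limma), TIGAR at 0.13, PLK3 at -0.13 and TP53I3 at -0.17. In wild type cells 4 of 18 were higher than in the empty vector clones, with a median of -0.095. Of the 18 genes 0 passed in limma between knockdown and control clones without clone 8, and 0 had an unadjusted p under 0.05, beside 6.47% of all genes.

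The nearest tested genes on the chromosome of the 3 members with the smallest p between the constructs were looked at after their values were seen, 10 on each side, in V2LHS_62675 against V2LHS_62673 without clone 8. Around RNF168 on chromosome 3, 17 of 20 neighbours were higher, with a median of 0.28 and a range of -0.08 to 0.58. Around LIG4 on chromosome 13, 4 of 20 were higher, with a median of -0.29 and a range of -1.07 to 0.16. Around FANCI on chromosome 15, 7 of 20 were higher, with a median of -0.01. Over all genes 55.7% were higher. The part of these neighbourhoods in the RNF168, LIG4 and FANCI values was not tested.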
